A study of Rattus norvegicus with 10 samples.

Results

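The genes described here shape the endoplasmic reticulum (ER) and carry proteins between the ER and the Golgi in COPII and COPI vesicles. They were chosen by gene symbol from a fixed list of 52, of which 49 were found among the 16748 genes of the table. The list was chosen with earlier results of these data known. Mia2, Mia3 and Ergic1 had no row under those symbols and were not analysed here. By role the 49 genes comprised 10 of the COPII coat, 4 organisers of ER exit sites, 9 of the COPI coat, 8 of the p24 family, 6 cargo receptors and proteins of the ER-Golgi intermediate compartment (ERGIC), 3 KDEL receptors and 9 genes of ER shape.

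RNA of the fat layer of milk was sequenced from wild type Sprague-Dawley rat dams on postnatal day (P) 10, the mature milk phase. EE libraries (n = 5) came from dams in environmental enrichment, and SD libraries (n = 5) from dams in standard laboratory cages. Enrichment meant large cages of several levels that held ramps, tubes, chew bones and toys, and the toys were changed regularly for novelty. Females were pair-housed, but from shortly before birth SD dams were housed singly, while EE dams stayed in 1 cage behind a divider that allowed contact. All dams were separated from their pups before collection and received isoflurane and oxytocin before milk was expressed by hand, and litters had been standardized and cross-fostered across the groups. The comparison of EE with SD asks whether maternal housing moves the milk fat transcriptome. The labels number the samples within each group without naming a dam, so the p-values measure the spread between these samples.

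Secreted proteins enter the ER, leave it at exit sites in COPII vesicles, and pass through the ERGIC to the Golgi. COPI vesicles carry escaped ER residents and receptors back. In a lactating gland this route carries caseins and the other milk proteins of the secretory epithelial cell, and RNA of that cell is enclosed in milk fat globules.

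Across the 49 genes the housing groups did not differ past an adjusted threshold, and the roles divided into ones with differences near 0 and ones with lower values in EE libraries. The p24 family, the KDEL receptors and the genes of ER shape were below 0 in the EE minus SD difference for 8 of 8, 3 of 3 and 9 of 9 genes, with medians of -0.42, -0.41 and -0.27 on the log2 scale, and the cargo receptor and ERGIC genes for 5 of 6, with a median of -0.25. The COPII coat, exit site and COPI coat genes had medians of 0.08, 0.0058 and 0.06. Of all 12992 genes tested 6756 were below 0. The 9 genes of ER shape include Atl1, which was near the floor and at -0.08. In the p24, KDEL receptor and cargo receptor roles most of the difference lay in EE replicates 3 and 5. The medians of these roles were low there while those of the coats were not. The ER shape genes still had a median of -0.13 without those libraries. Atl2, which fuses ER tubules, was lower in EE libraries whether or not those libraries were counted, and Preb, which starts COPII coat assembly, was higher.

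Levels are given as normalized counts, recovered from the deposited log2 values and not corrected for transcript length, with standard deviations written s.d. because SD names a housing group. Estimated reads numbered 43279657 to 70193850 per library. SD replicate 4 had the lowest estimate, and the mean column of the authors' comparison matched the mean of the 9 libraries without it (s.d. of the log2 ratio 0.022, against 0.0807 over all 10 and 0.0973 to 0.164 over the sets that lacked a different library). Counts over the 49 genes, and the single genes where it bears on the test, are therefore given with and without SD replicate 4. Markers of secretory luminal epithelium were present in every library. Their summed normalized counts were 12864266 to 36264781 in EE and 28995123 to 38323556 in SD libraries. These 9 markers include the casein genes Csn2 and Csn1s1, so their sum is not separate from the casein share given below. The 6 leukocyte markers summed to 85.6 to 581 in EE and 129 to 617 in SD libraries, the 5 myoepithelial markers to 2045 to 2744 in EE and 1412 to 2254 in SD libraries, and the 3 endothelial markers to 17 to 110 in EE and 24 to 69.5 in SD libraries. The 4 fibroblast markers reached at most 4.21 in EE and 13.6 in SD libraries, with Col3a1 and Dcn at 0, and the 3 adipocyte markers at most 7.42 in EE and 3.87 in SD libraries, with Plin1 at 0. Casein transcripts took 54.8%, 54%, 44.1%, 61% and 40.4% of normalized counts in EE replicates 1 to 5, against 61.2%, 60.1%, 57%, 60.4% and 57.7% in SD replicates 1 to 5. Fewer cells of a type and less RNA per cell cannot be told apart in these libraries.

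**Figure D1:**
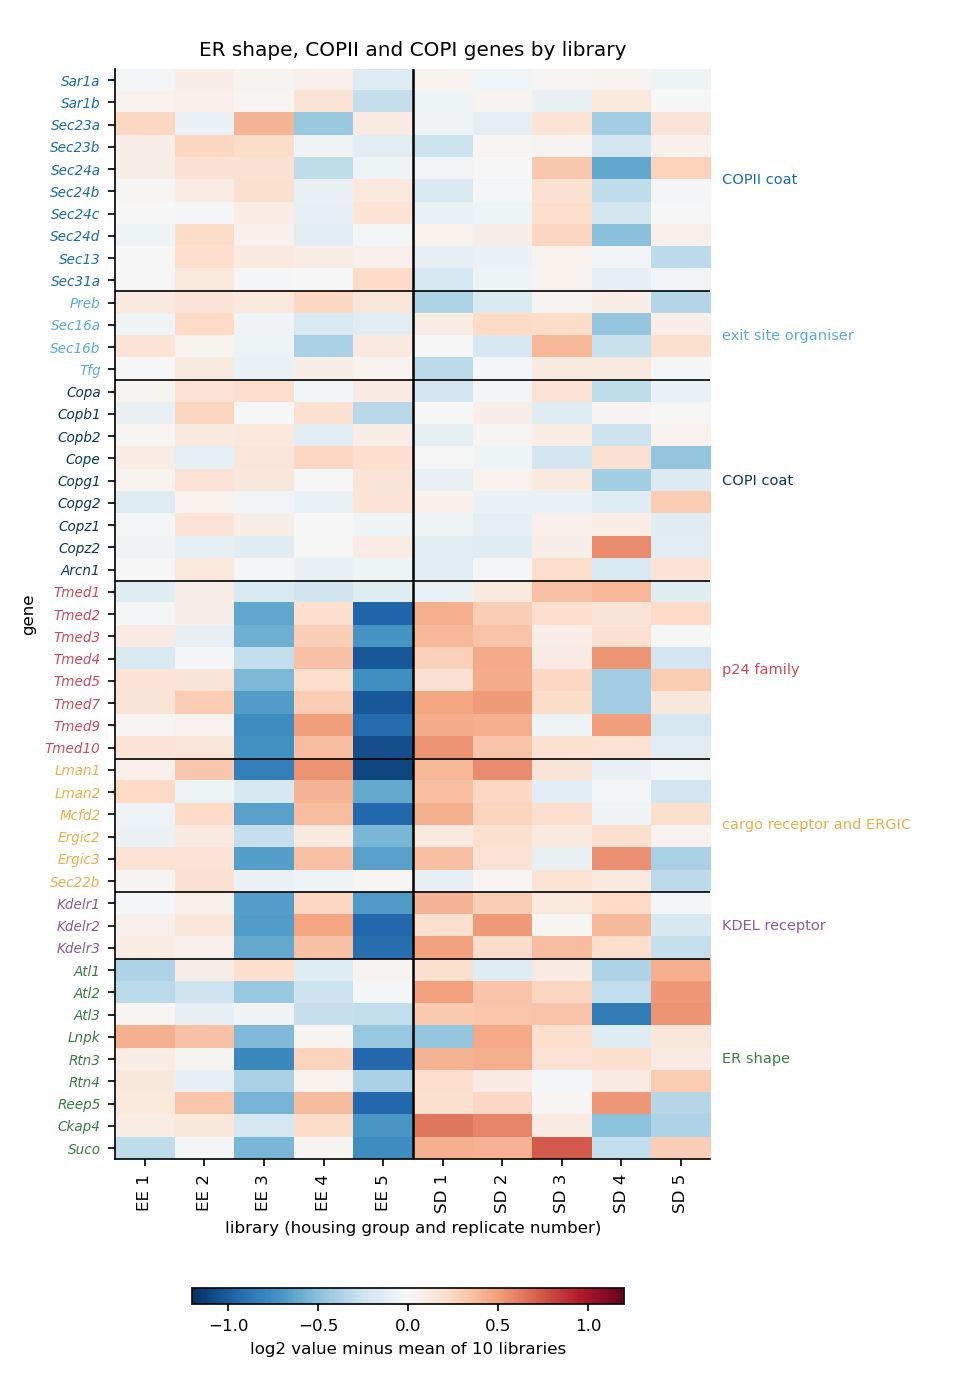
Deviation of each of the 49 genes from its own mean over 10 libraries (log2 scale, colour), in 5 EE columns and 5 SD columns, with genes in lines ordered by role. The blue blocks in EE 3 and EE 5 lie in the p24, cargo receptor and KDEL receptor genes and in part of the ER shape genes, and the coat genes are pale in those columns.

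Promoter sequence is shown because many genes of this route are known targets of the unfolded protein response, whose factors XBP1 and ATF6 bind short motifs upstream of secretory genes, and because genes with and without such a motif can then be set beside their values. RefSeq promoters of the assembly GRCr8, each holding 250 bases before and 50 after a gene's start, were matched by gene identifier for 43 of the 49 genes. The motif TGACGTGG, known as the UPRE, was searched on both strands and found in a promoter of 6 of 43 genes (14%). The shares were 0.868% of the 10481 genes tested that had a promoter and 0.595% of all 33469 promoters. The last share counts single promoters, and the others count genes with the motif in any promoter. In the windows below capitals mark it, on either strand, and sequence reads 5′ to 3′ on the gene's strand.
Sec23a (chr6:82440972-82441011, minus strand): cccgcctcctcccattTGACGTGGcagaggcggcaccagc
Copa (chr13:87078882-87078917, plus strand): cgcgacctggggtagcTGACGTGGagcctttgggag
Copb1 (chr1:177872823-177872862, minus strand): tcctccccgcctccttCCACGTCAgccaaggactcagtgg
Copb2 (chr8:108040661-108040700, plus strand): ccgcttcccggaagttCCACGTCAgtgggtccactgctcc
Kdelr3 (chr7:112959515-112959554, plus strand): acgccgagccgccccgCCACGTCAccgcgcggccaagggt
Ckap4 (chr7:21118357-21118396, plus strand): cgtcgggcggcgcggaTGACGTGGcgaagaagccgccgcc

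These 6 genes did not share a direction between the housing groups. The EE minus SD difference was 0.10 for Sec23a, 0.19 for Copa, 0.0099 for Copb1 and 0.09 for Copb2, and -0.41 for Kdelr3 and -0.18 for Ckap4, each on the log2 scale. Its core ACGTGG, which every UPRE also holds, was in a promoter of 21 of 43 genes (48.8%), against 7.84% of all promoters and 11.2% of genes tested. The 21 were 4 of 7 COPII coat, 1 of 4 exit site, 7 of 9 COPI coat, 5 of 8 p24, 1 of 6 cargo receptor, 1 of 2 KDEL receptor and 2 of 7 ER shape genes. The longer ERSE, a CCAAT box followed by CCACG at a fixed spacing, was in 0 of 43 genes, against 0.0657% of all promoters and 0.143% of genes tested. The CCAAT box, CCAAT, which is also the start of an ERSE, was in 19 of 43 (44.2%), against 37.5% and 38.2%. A match of letters is a description of the window and says nothing of binding.

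Whole promoter windows follow for 4 genes whose values are described below: Tmed2 and Sec13, which hold the core and lie on opposite sides of 0, and Preb and Atl2, which hold neither the UPRE nor its core. Capitals mark the core in Tmed2 and Sec13, the CCAAT box in Preb and the cyclic AMP response element (CRE), TGACGTCA, in Atl2. The windows of Tmed2 and Atl2 also hold a CCAAT box, which is not in capitals there. The CRE was searched after the Atl2 window had been seen, and was in a promoter of 2 of 43 genes (4.65%), against 1.83% of all promoters and 3.03% of genes tested.
Tmed2 (chr12:37722557-37722856, minus strand): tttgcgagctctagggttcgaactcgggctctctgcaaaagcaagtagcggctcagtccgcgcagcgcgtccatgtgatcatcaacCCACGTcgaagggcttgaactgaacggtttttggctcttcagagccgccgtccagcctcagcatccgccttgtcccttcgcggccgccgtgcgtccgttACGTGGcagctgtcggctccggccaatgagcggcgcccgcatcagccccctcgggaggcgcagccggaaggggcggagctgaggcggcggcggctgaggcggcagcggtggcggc
Sec13 (chr4:148446686-148446985, minus strand): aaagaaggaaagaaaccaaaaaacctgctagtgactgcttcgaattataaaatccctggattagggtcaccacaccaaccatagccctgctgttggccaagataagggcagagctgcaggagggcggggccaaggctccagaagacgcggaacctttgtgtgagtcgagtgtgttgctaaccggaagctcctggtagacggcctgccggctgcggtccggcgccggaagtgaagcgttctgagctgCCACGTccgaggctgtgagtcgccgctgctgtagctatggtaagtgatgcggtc
Preb (chr6:31138507-31138806, plus strand): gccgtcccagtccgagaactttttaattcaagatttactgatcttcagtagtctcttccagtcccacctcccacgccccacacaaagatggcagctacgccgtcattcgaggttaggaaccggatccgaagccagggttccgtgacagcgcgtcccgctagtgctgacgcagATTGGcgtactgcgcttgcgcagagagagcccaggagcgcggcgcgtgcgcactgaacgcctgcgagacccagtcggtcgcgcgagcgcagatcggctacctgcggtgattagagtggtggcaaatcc
Atl2 (chr6:20891034-20891333, plus strand): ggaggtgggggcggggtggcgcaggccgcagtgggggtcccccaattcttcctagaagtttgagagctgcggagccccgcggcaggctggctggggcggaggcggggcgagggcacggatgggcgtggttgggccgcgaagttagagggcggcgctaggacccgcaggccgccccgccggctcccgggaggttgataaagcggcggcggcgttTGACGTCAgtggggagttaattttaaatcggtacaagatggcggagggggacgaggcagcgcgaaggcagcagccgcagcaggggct

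No gene of 12992 tested passed an adjusted p of 0.05 (Benjamini-Hochberg over all genes tested) over all 10 libraries in limma (0% of genes, 0 of the 49), with 526 genes lower and 435 higher at an unadjusted p under 0.05. Of 12955 genes tested without SD replicate 4, 1 passed (0.00772% of genes), and it was none of the 49. At an unadjusted p under 0.05, 6 of the 49 were lower in EE libraries, against a background of 4.05% of genes, and 2 were higher, against 3.35%. The counts were 5 lower without SD replicate 4, against 5.24%, and 3 higher, against 5.15%. The 49 genes had a median difference of -0.08 on the log2 scale over all 10 libraries and -0.13 without SD replicate 4, beside -0.0087 and -0.0016 for all genes tested.

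The count of 6 lower genes moved with single libraries. It was 2 without EE replicate 3, where 333 of all genes tested were lower in place of 526, and 13 without EE replicate 4, where 662 were. It was 3 without EE replicate 5, SD replicate 1 or SD replicate 2 and 9 without SD replicate 5, beside 473, 432, 575 and 446 of all genes. The count of 2 higher genes was 1 without EE replicate 3, 4 or 5 or SD replicate 1, 2 or 5, and 4 without SD replicate 3, while 292 to 432 of all genes were higher in those fits. Under median centring 422 genes were lower and 551 higher in EE libraries at an unadjusted p under 0.05, and under quantile normalization 392 and 678, against 526 and 435 as deposited, while of the 49 genes 6 were lower and 2 higher under median centring and 5 and 3 under quantile normalization.

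No gene of the 49 was below the SD libraries in every EE library when all 10 were counted (0.485% of genes were), and 1, Preb, was above (0.754% of genes). Without SD replicate 4, Tmed2, Atl2, Atl3 and Suco were below without overlap, 4 of 49 against 1.55% of genes, and Preb was again above, against 2.12%.

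**Figure D2:**
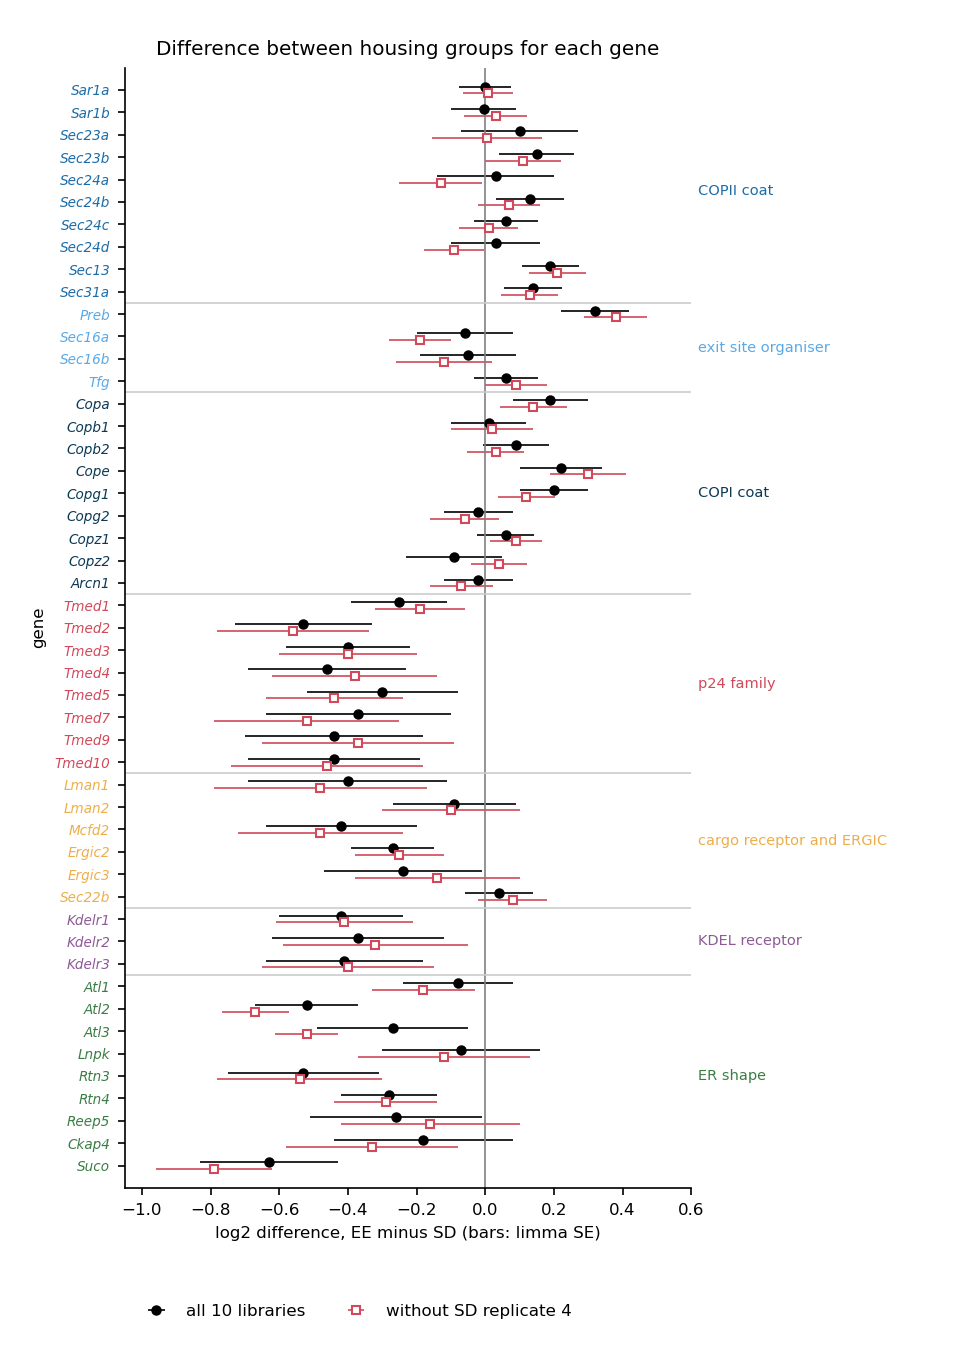
Difference between EE and SD libraries on the log2 scale for each of the 49 genes, with limma standard errors as bars, over all 10 libraries (filled circles) and without SD replicate 4 (open squares). Coat genes lie near 0, p24 and KDEL receptor genes at -0.25 or below over all 10 libraries, and Atl3 moves from -0.27 to -0.52 when SD replicate 4 is left out.

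The COPII coat differed little between the housing groups. Its small GTPases Sar1a and Sar1b, which insert into the ER membrane and recruit the inner coat, differed by -0.00032 and -0.0041 on the log2 scale. The inner coat of Sec23 and Sec24, which activates the GTPase and binds cargo, had differences of 0.03 to 0.15 over its 6 genes, and the outer coat of Sec13 and Sec31, which forms the cage, 0.14 for Sec31a and 0.19 for Sec13. The 10 genes without SD replicate 4 ranged between -0.13 and 0.21, with 8 above 0.

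Sec13 had 4900, 5623, 5307, 5186 and 5106 normalized counts in EE replicates 1 to 5, against 4540, 4629, 5035, 4769 and 3903 in SD replicates 1 to 5. The EE libraries were all above 4 of the 5 SD libraries, and SD replicate 3 lay among them. Sec13 averaged 5224 ± 268 in EE and 4575 ± 420 in SD libraries (s.d., n = 5 each). The difference was 0.19 ± 0.084 on the log2 scale (EE minus SD, limma SE), with an unadjusted p = 0.0419, an adjusted p = 0.665 and a two-sided exact permutation p = 0.0159. It was 0.21 ± 0.083 on the log2 scale (EE minus SD, limma SE), with an unadjusted p = 0.0293, an adjusted p = 0.433 and a two-sided exact permutation p = 0.0159 without SD replicate 4. Its unadjusted p was over 0.05 under 12 of 22 other settings, with differences of 0.14 to 0.24. Sec13 is also a subunit of the nuclear pore, so its transcript serves more than the coat.

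Sec23b had 23876, 27150, 26445, 21937 and 20649 normalized counts in EE replicates 1 to 5, against 18951, 22927, 23193, 19329 and 23464 in SD replicates 1 to 5. The groups overlapped. Sec23b is the form of the inner coat subunit whose loss in human red cell precursors causes a congenital anaemia, and its difference was 0.15 ± 0.11 on the log2 scale (EE minus SD, limma SE), with an unadjusted p = 0.195, an adjusted p = 0.798 and a two-sided exact permutation p = 0.159. Of its paralogue Sec23a the libraries held 556 to 1073 normalized counts in EE and 570 to 894 in SD. The log2 ratio of Sec23a to Sec23b averaged -4.73 in EE and -4.67 in SD libraries, not corrected for transcript length.

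Sec24a and Sec24d were low in SD replicate 4. Sec24a, a cargo-binding subunit, had 6177 to 8747 normalized counts in EE libraries, against 4936 in SD replicate 4 and 7488 to 9623 in the other SD libraries. Sar1b, its neighbour on the rat chromosome and on the opposite strand, had 2580 in SD replicate 4, the highest value of its 5 SD libraries. The low value of SD replicate 4 was thus not shared by the neighbouring gene.

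Among the exit site organisers Preb stood apart from the other genes. Preb, also called SEC12, is the ER membrane protein that loads SAR1 with GTP and so starts COPII assembly. Preb had 2607, 2682, 2623, 2873 and 2669 normalized counts in EE replicates 1 to 5, against 1822, 2121, 2452, 2537 and 1857 in SD replicates 1 to 5. Every EE library was above every SD library. Preb averaged 2691 ± 106 in EE and 2158 ± 330 in SD libraries (s.d., n = 5 each). The difference was 0.32 ± 0.1 on the log2 scale (EE minus SD, limma SE), with an unadjusted p = 0.00906, an adjusted p = 0.561 and a two-sided exact permutation p = 0.00794, the smallest value that 5 against 5 libraries allow. Without SD replicate 4 it was 0.38 ± 0.092 on the log2 scale (EE minus SD, limma SE), with an unadjusted p = 0.00178, an adjusted p = 0.29 and a two-sided exact permutation p = 0.00794. Across 22 other settings it stayed between 0.26 and 0.41 with an unadjusted p of 0.000648 to 0.0263, and the adjusted p over all genes was not passed in either set of libraries.

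The scaffold Sec16a, on which exit sites form, had overlapping values. Sec16a had 6799, 8315, 6857, 6204 and 6465 normalized counts in EE replicates 1 to 5, against 7514, 8331, 8210, 5077 and 7474 in SD replicates 1 to 5. SD replicate 4 was the lowest of the 10 libraries, and the other SD libraries lay at the upper end of the EE range. The difference was -0.06 ± 0.14 on the log2 scale (EE minus SD, limma SE), with an unadjusted p = 0.642, an adjusted p = 0.929 and a two-sided exact permutation p = 0.706, and without SD replicate 4 -0.19 ± 0.091 on the log2 scale (EE minus SD, limma SE), with an unadjusted p = 0.0624, an adjusted p = 0.496 and a two-sided exact permutation p = 0.0873. Sec16b had 3740 to 5543 normalized counts in EE and 4066 to 6512 in SD libraries, and Tfg, which clusters COPII carriers, 3272 to 3745 in EE and 2755 to 3738 in SD libraries, with log2 differences of -0.05 and 0.06.

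The COPI coat, or coatomer, is a complex of 7 subunits recruited to Golgi membranes by ARF1, and its 9 genes, which include a pair of paralogues for the gamma and for the zeta subunit, ranged from -0.09 to 0.22 in the log2 difference. Copa had 20500, 22718, 23288, 19565 and 21469 normalized counts in EE replicates 1 to 5, against 17049, 19612, 22619, 16223 and 18941 in SD replicates 1 to 5. Copa, the alpha subunit, binds the retrieval signal of escaped ER proteins, and its groups overlapped with a difference of 0.19 ± 0.11 on the log2 scale (EE minus SD, limma SE), with an unadjusted p = 0.093, an adjusted p = 0.708 and a two-sided exact permutation p = 0.0794. Copb1, Copb2 and Arcn1, the beta, beta prime and delta subunits, differed by 0.0099, 0.09 and -0.02.

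Cope had 4850, 4195, 5070, 5429 and 5253 normalized counts in EE replicates 1 to 5, against 4566, 4410, 3886, 5198 and 3267 in SD replicates 1 to 5. Cope, the epsilon subunit, was highest in EE replicate 4 and lowest in SD replicate 5, and the groups overlapped. The difference was 0.22 ± 0.12 on the log2 scale (EE minus SD, limma SE), with an unadjusted p = 0.0898, an adjusted p = 0.708 and a two-sided exact permutation p = 0.119, and without SD replicate 4 0.30 ± 0.11 on the log2 scale (EE minus SD, limma SE), with an unadjusted p = 0.0209, an adjusted p = 0.425 and a two-sided exact permutation p = 0.0397. The log2 ratio of Copg1 to Copg2 averaged 3.01 in EE and 2.79 in SD libraries, or 2.83 without SD replicate 4. The groups overlapped in this ratio, at 2.88 to 3.10 in EE and 2.43 to 3.10 in SD libraries. Copz2, the other zeta subunit, had 1378 to 1637 normalized counts in EE libraries, against 2324 in SD replicate 4 and 1385 to 1624 in the other SD libraries.

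The p24 family, whose products are single-pass membrane proteins that cycle between ER and Golgi and help to load cargo such as lipid-anchored proteins, was lower in EE libraries for 8 of 8 genes, with differences from -0.53 to -0.25. Tmed2 and Tmed3 had an unadjusted p under 0.05. Tmed2 had 6229, 6649, 4049, 7260 and 3194 normalized counts in EE replicates 1 to 5, against 8581, 7739, 7284, 7035 and 7405 in SD replicates 1 to 5. EE replicates 3 and 5 were the lowest of the 10 libraries, and EE replicate 4 was above SD replicate 4. Tmed2 averaged 5476 ± 1758 in EE and 7609 ± 600 in SD libraries (s.d., n = 5 each). The difference was -0.53 ± 0.2 on the log2 scale (EE minus SD, limma SE), with an unadjusted p = 0.0197, an adjusted p = 0.631 and a two-sided exact permutation p = 0.0159, and without SD replicate 4 -0.56 ± 0.22 on the log2 scale (EE minus SD, limma SE), with an unadjusted p = 0.0258, an adjusted p = 0.428 and a two-sided exact permutation p = 0.0556.

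Tmed3 had 3330, 2897, 2038, 3815 and 1858 normalized counts in EE replicates 1 to 5, against 4109, 3939, 3275, 3532 and 3080 in SD replicates 1 to 5. The 2 lowest values were again those of EE replicates 3 and 5, and the other EE libraries overlapped the SD libraries. Tmed3 averaged 2788 ± 835 in EE and 3587 ± 434 in SD libraries (s.d., n = 5 each). Its difference was -0.40 ± 0.18 on the log2 scale (EE minus SD, limma SE), with an unadjusted p = 0.0486, an adjusted p = 0.674 and a two-sided exact permutation p = 0.111, and the unadjusted p was 0.0694 in limma without SD replicate 4. The other 6 genes of the family had differences of -0.46 to -0.25 and unadjusted p above 0.05 over all 10 libraries, among them Tmed10 with 2442 to 6731 normalized counts in EE and 4731 to 7597 in SD libraries, and Tmed9 with 2225 to 6133 in EE and 3691 to 6138 in SD libraries.

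By library, 4 of the 6 cargo receptor and ERGIC genes followed the p24 pattern, with EE replicates 3 and 5 lowest. None had an unadjusted p under 0.05 in limma with or without SD replicate 4. Ergic2 had a two-sided exact permutation p of 0.0397 over all 10 libraries. Lman1 and Mcfd2 form the receptor that carries clotting factors V and VIII out of the ER. Mcfd2 had 3527, 4266, 2280, 4729 and 1846 normalized counts in EE replicates 1 to 5, against 4919, 4379, 4186, 3528 and 4169 in SD replicates 1 to 5. EE replicates 3 and 5 were lowest and the other 3 EE libraries lay within or close to the SD range. Its difference was -0.42 ± 0.22 on the log2 scale (EE minus SD, limma SE), with an unadjusted p = 0.0881, an adjusted p = 0.706 and a two-sided exact permutation p = 0.183. Lman1 had 1428 to 4628 normalized counts in EE and 2978 to 4746 in SD libraries, a difference of -0.40. Lman2, Ergic2 and Ergic3, a lectin of the early pathway and a pair of ERGIC membrane proteins, differed by -0.09, -0.27 and -0.24, and the SNARE Sec22b, which drives fusion between ER and Golgi membranes, by 0.04.

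The KDEL receptors, which bind escaped ER chaperones in the Golgi and return them in COPI vesicles, differed by -0.42, -0.37 and -0.41 for Kdelr1, Kdelr2 and Kdelr3. Kdelr1 had 4243, 4467, 2687, 5112 and 2651 normalized counts in EE replicates 1 to 5, against 5727, 5293, 4686, 5065 and 4211 in SD replicates 1 to 5. EE replicates 3 and 5 were the lowest, and the other 3 EE libraries lay inside the SD range. Kdelr1 averaged 3832 ± 1109 in EE and 4997 ± 579 in SD libraries (s.d., n = 5 each). The difference was -0.42 ± 0.18 on the log2 scale (EE minus SD, limma SE), with an unadjusted p = 0.0378, an adjusted p = 0.657 and a two-sided exact permutation p = 0.0873, and the unadjusted p was 0.0607 in limma without SD replicate 4. Kdelr2 had 1242 to 3464 normalized counts in EE and 2156 to 3555 in SD libraries, and Kdelr3 850 to 2156 in EE and 1363 to 2371 in SD libraries.

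Of the genes of ER shape, the atlastins Atl2 and Atl3 are GTPases that fuse tubules into a network. Atl2 had 1683, 1776, 1533, 1771 and 2100 normalized counts in EE replicates 1 to 5, against 3034, 2727, 2568, 1717 and 3094 in SD replicates 1 to 5. The EE libraries were below 4 of the 5 SD libraries, and SD replicate 4 lay among them. Atl2 averaged 1773 ± 208 in EE and 2628 ± 553 in SD libraries (s.d., n = 5 each), or 2856 ± 250 in the 4 SD libraries without SD replicate 4. The difference was -0.52 ± 0.15 on the log2 scale (EE minus SD, limma SE), with an unadjusted p = 0.0041, an adjusted p = 0.506 and a two-sided exact permutation p = 0.0317. Without SD replicate 4 it was -0.67 ± 0.098 on the log2 scale (EE minus SD, limma SE), with an unadjusted p = 3.17e-05, an adjusted p = 0.116 and a two-sided exact permutation p = 0.00794, the smallest exact p that 5 against 4 libraries allow. Across 22 other settings it ranged from -0.68 to -0.46, each with an unadjusted p under 0.05 (highest 0.0125).

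Atl3 had 2396, 2204, 2289, 1932 and 1902 normalized counts in EE replicates 1 to 5, against 2948, 2986, 3009, 1280 and 3471 in SD replicates 1 to 5. SD replicate 4 was the lowest of the 10 libraries, and the other 4 SD libraries were above every EE library. Atl3 averaged 2145 ± 219 in EE and 2739 ± 843 in SD libraries (s.d., n = 5 each), or 3104 ± 246 in the 4 SD libraries without SD replicate 4. Over all 10 libraries the difference was -0.27 ± 0.22 on the log2 scale (EE minus SD, limma SE), with an unadjusted p = 0.231, an adjusted p = 0.815 and a two-sided exact permutation p = 0.325. Without SD replicate 4 it was -0.52 ± 0.091 on the log2 scale (EE minus SD, limma SE), with an unadjusted p = 0.000144, an adjusted p = 0.208 and a two-sided exact permutation p = 0.00794. With library weights in the fit of all 10 libraries it was -0.40, with an unadjusted p of 0.0189 in limma. Atl1, the atlastin of neurons, was near the floor with 0 to 6.96 normalized counts in EE and 0 to 14.2 in SD libraries.

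Suco had 789, 976, 652, 1016 and 561 normalized counts in EE replicates 1 to 5, against 1368, 1358, 1711, 793 and 1236 in SD replicates 1 to 5. Suco, a SUN domain protein of the rough ER known in mice for a part in bone formation, was lowest in EE replicates 5 and 3, and SD replicate 4 lay among the EE libraries. Suco averaged 799 ± 198 in EE and 1293 ± 331 in SD libraries (s.d., n = 5 each). The difference was -0.63 ± 0.2 on the log2 scale (EE minus SD, limma SE), with an unadjusted p = 0.0075, an adjusted p = 0.558 and a two-sided exact permutation p = 0.0317, the largest in size of the 49 genes. It was -0.79 ± 0.17 on the log2 scale (EE minus SD, limma SE), with an unadjusted p = 0.000628, an adjusted p = 0.233 and a two-sided exact permutation p = 0.00794 when SD replicate 4 was left out. Without EE replicates 3 and 5 it was -0.41, and with SD replicate 4 also left out it was -0.57.

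Reticulons wedge into the membrane and curve it into tubules. Rtn3 had 9078, 8724, 4944, 10328 and 4379 normalized counts in EE replicates 1 to 5, against 11335, 11575, 9594, 9822 and 9144 in SD replicates 1 to 5. EE replicates 3 and 5 were lowest, and EE replicate 4 lay above 3 SD libraries. Rtn3 averaged 7491 ± 2658 in EE and 10294 ± 1091 in SD libraries (s.d., n = 5 each). The difference was -0.53 ± 0.22 on the log2 scale (EE minus SD, limma SE), with an unadjusted p = 0.0324, an adjusted p = 0.657 and a two-sided exact permutation p = 0.0635, and without SD replicate 4 -0.54 ± 0.24 on the log2 scale (EE minus SD, limma SE), with an unadjusted p = 0.0458, an adjusted p = 0.475 and a two-sided exact permutation p = 0.111. Rtn3 lies next to Atl3 on the rat chromosome, and the libraries with low values differed between the neighbours: EE replicates 3 and 5 for Rtn3, and SD replicate 4 for Atl3.

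The remaining genes of ER shape overlapped between the groups. Rtn4 had 211 to 338 normalized counts in EE and 297 to 389 in SD libraries, with a difference of -0.28, and Reep5, another tubule-curving protein, 1751 to 4517 in EE and 2700 to 4978 in SD libraries, with -0.26. Lnpk, or lunapark, which sits at junctions between tubules, differed by -0.07. Ckap4, a spacer of ER sheets, had 22 to 90.1 normalized counts in EE and 32.6 to 143 in SD libraries, with a difference of -0.18.

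**Figure D3:**
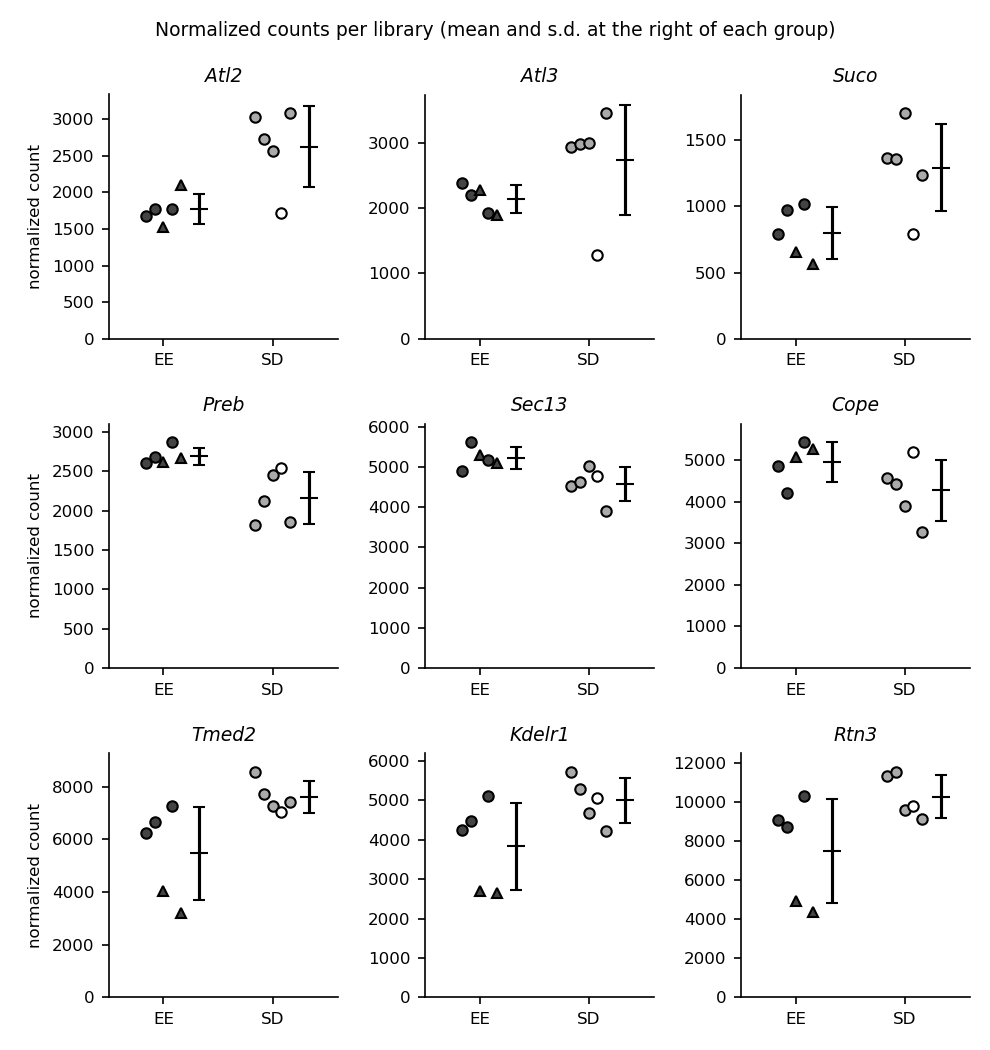
Normalized counts of 9 genes in each library, EE left of SD, with the mean and standard deviation at the right of each group. Triangles are EE replicates 3 and 5 and the open circle is SD replicate 4. Atl3 has 1280 in SD replicate 4 against 2948 to 3471 in the other SD libraries, and Tmed2 has 4049 and 3194 in EE replicates 3 and 5.

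EE replicates 3 and 5 set much of the difference in receptors apart from that in coats. These libraries were singled out after their values had been seen, so the following values are a description with no test. They were the 2 lowest of the 10 libraries in 7 of 8 p24 genes, 3 of 3 KDEL receptors, 4 of 6 cargo receptor genes, 4 of 9 ER shape genes and 0 of the 23 coat and exit site genes. Single coat genes were low in EE replicate 5: Sar1a, Sar1b and Copb1 had 8953, 1911 and 4443 normalized counts there, each the lowest of the 10 libraries. In all EE replicates 3 and 5 were the lowest pair in 18 of 49 genes (36.7%), against 7.6% of all genes tested. The median of EE replicate 3 minus the other EE libraries was -0.70 in the p24 family and -0.71 in the KDEL receptors, and 0.11 and 0.06 in the COPII and COPI coats, on the log2 scale. For EE replicate 5 the same medians were -0.99, -0.99, 0.01 and 0.07.

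Without EE replicates 3 and 5 the median difference became -0.07 in the p24 family, 0.09 in the cargo receptors, -0.04 in the KDEL receptors and -0.13 in the ER shape genes, and it was 0.06 and 0.08 in the COPII and COPI coats. Over the 49 genes it was 0.03. Atl2 and Preb were at -0.54 and 0.33 without those libraries. Tmed2, Tmed3, Kdelr1 and Rtn3 were at -0.18, -0.10, -0.11 and -0.13. Suco and Atl3 were at -0.41 and -0.25. With SD replicate 4 also left out, Atl2, Suco and Atl3 were at -0.68, -0.57 and -0.50. Tmed2, Tmed3, Kdelr1 and Rtn3 were then at -0.21, -0.10, -0.10 and -0.15.

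EE replicates 3 and 5 also had the 2 lowest shares of casein transcripts, 44.1% and 40.4%. With that share as a covariate the median difference was 0.07 in the p24 family, 0.20 in the cargo receptors, 0.12 in the KDEL receptors and -0.07 in the ER shape genes, and Tmed3, Kdelr1 and Rtn3 were at 0.04, 0.01 and 0.02. Atl2 remained at -0.58 and Preb at 0.34, with an unadjusted p of 0.011 and 0.0243 in limma. The part of casein share, and of whatever else sets these libraries apart, in the lower receptor transcripts was not tested.

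**Figure D4:**
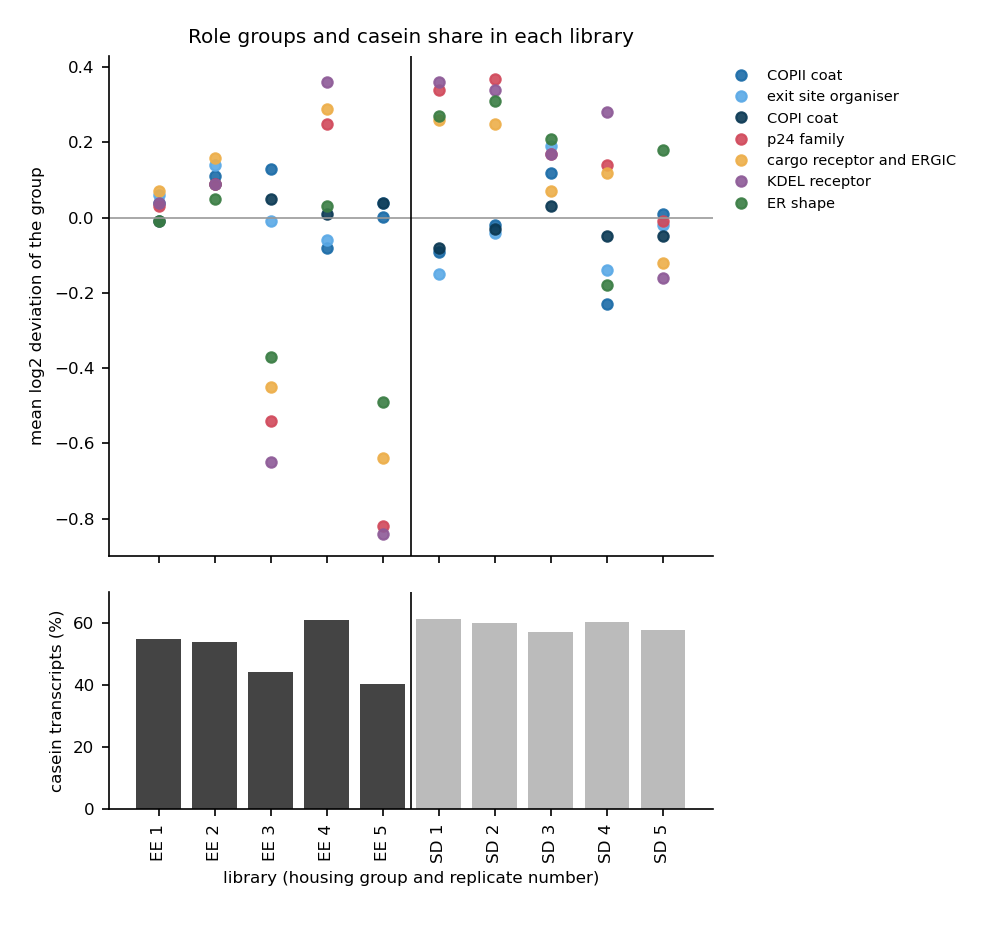
Mean log2 deviation of each role's genes from their own means, per library (upper panel, 1 colour per role), and the share of casein transcripts in percent of normalized counts (lower panel), with 5 EE libraries left of 5 SD libraries. In EE replicates 3 and 5 the p24 mean is at -0.54 and -0.82 and the casein share at 44.1% and 40.4%, and the COPII and COPI means there lie between 0.0027 and 0.13.

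SD replicate 4 differed in another set of genes. It was the lowest of the SD libraries in 22 of 49 genes (44.9%), against 22.6% of all genes tested, and the highest in 11 (22.4%), against 28.2%. In the ER shape genes its median lay -0.52 from the other SD libraries, in the COPII coat -0.22, in the COPI coat -0.15 and in the KDEL receptors 0.02. The part of SD replicate 4's depth, the lowest of the 10, in these values was not tested.

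Genes that work with these but were not among them came from 7 lists of textbook partners, also chosen with earlier results of these data known. The ARF1 cycle had 8 measured genes with a median difference of 0.06 and 0 at an unadjusted p under 0.05 in limma, and the TRAPP tether complex 13 with 0.04 and 0. Over all genes 4.05% were lower and 3.35% higher at that threshold, so 1 gene in a list is no more than a description. Of 13 ER-Golgi tethers and SNAREs 1 was past it, Gosr2, a Golgi SNARE, with a difference of 0.19 (limma, unadjusted p = 0.0219), and of 4 retrograde tethers and ER SNAREs 1 was, Use1, with -0.30 (limma, unadjusted p = 0.0304). Of 14 COPII accessory genes 1 was past it, Cnih1, a cargo adaptor of the cornichon family, with -0.29 (limma, unadjusted p = 0.0203).

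Of 13 other ER shaping genes 11 were below 0, with a median of -0.22, and Rtn1 alone had an unadjusted p under 0.05 in limma (0.038), at 2.2 to 35 normalized counts in EE and 32.2 to 61.9 in SD libraries. Without EE replicates 3 and 5 their median was -0.02. Over all 10 libraries 6756 of the 12992 genes tested were below 0. Of 9 regulators of secretory genes 8 were below 0, with a median of -0.29 and 0 at an unadjusted p under 0.05 over all 10 libraries. The median without SD replicate 4 was -0.36 and 6 of 9 were lower at an unadjusted p under 0.05, against 5.24% of all genes. The median was -0.06 without EE replicates 3 and 5, and -0.17 without those and SD replicate 4. In that last fit 2 of 9 were lower and 1 higher at that p, beside 559 and 481 of all genes. Xbp1 and Atf6 differed by -0.29 and -0.38 over all 10 libraries, and by -0.36 and -0.64 without SD replicate 4. Without EE replicates 3 and 5 both were at -0.10. With SD replicate 4 also left out they were at -0.17 and -0.35.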

How the data were processed

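Milk fat RNA of 5 EE and 5 SD samples was analysed, grouped by GEO's labels. The deposited per-library values are log2 values, made by the authors with DESeq2 from reads aligned to rn6 and called regularized log. The read counter, its annotation and its filters are not given in the sources used here. They share a lowest value of 5.4605 and were inverted as variance-stabilized values to normalized counts, which are not corrected for length. The authors' mean normalized signal (baseMean) served to check that inversion and which libraries it averages, and their fold changes and p-values were not used. Steps of 1 read gave the estimated reads, with 89.4% to 98.2% of low values whole within 0.1.

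Genes with 1 value in every library (3756) were left out. The housing groups were compared two-sided with limma 3.58.1 under R 4.3.3 (eBayes with a trend), with Benjamini-Hochberg adjustment over all genes tested, and single genes by exact permutation of the libraries. The 52 genes and all lists were chosen with earlier results of these data known. Genes given per library had an unadjusted p under 0.05 with or without SD replicate 4, or the highest mean of their role. Alternatives covered filter, scaling, transformation, moderation, weights, replicate block, casein share and each left-out library.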

Additional observations from a re-analysis of the deposited data

Results flagged for a closer look

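In 4 genes 1 library lay far from the other 4 of its group by Dixon's test at the 95% level. Sec24d, a COPII cargo-binding subunit, had 7095 normalized counts in SD replicate 4, against 10411 to 12137 in the other SD libraries. Sec16a had 5077 in SD replicate 4, against 7474 to 8331, and Atl3 had 1280 there, against 2948 to 3471. Tfg had 2755 in SD replicate 1, against 3424 to 3738 in the other SD libraries. Of 98 groups of 5 libraries tested (49 genes in each housing group) these were 4, where chance gives about 4.9, and 3 of the 4 were in SD replicate 4.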

How the results depend on the processing

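Preb and Atl2 kept their direction and an unadjusted p under 0.05 under all 22 alternatives. Suco lost that p without EE replicates 3 and 5 and with the casein share, and Tmed2, Tmed3, Kdelr1, Rtn3 and Sec13 under 4, 15, 10, 8 and 12 alternatives, while Atl3 and Cope gained it under 4 each and Copa and Mcfd2 under 2 each. With the casein share as a covariate Tmed3, Kdelr1 and Rtn3 turned to 0.04, 0.01 and 0.02 and Mcfd2 to 0.12. At an unadjusted p under 0.05 in that fit 1 of the 49 genes was lower in EE and 2 were higher. The 2 were Preb and Lman2, at 0.34 and 0.31. Among all genes 502 were lower and 449 higher. The median of the 49 genes was 0.06. Without a variance trend and with robust moderation 1 gene of the 49 was higher. Quantile normalization gave 1 gene past the adjusted threshold and 678 genes higher, and without SD replicate 4 also 1 and 917. Chosen after seeing the data, leaving out EE replicates 3 and 5 gave 1 lower and 1 higher of the 49 (384 and 324 of all genes) and a median of 0.03, and leaving out SD replicate 4 as well gave 3 genes past the adjusted threshold in all and 3 lower and 1 higher of the 49. Leaving out 1 library at a time, genes past the adjusted threshold numbered 0 to 1, genes lower 333 to 679 and higher 292 to 667, and of the 49 genes 2 to 13 were lower and 1 to 4 higher. The cause of these moves was not tested. Same-numbered EE and SD libraries correlated at 0.0683, 0.0749, -0.0936, 0.029 and 0.281 in their deviations. Libraries of different numbers correlated at -0.401 to 0.336. Without a test these values cannot decide whether the numbers pair the samples. With a replicate block 13 of the 49 genes were lower and 2 higher, among 698 and 402 genes in all. Low counts limit mainly Atl1 and Ckap4.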
